A study of Mus musculus with 3 samples.

Results

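The Twist1 binding regions described here are those near 50 genes that encode ephrins, semaphorins, netrins, Slits and their receptors. A region (peak) was taken when the deposited list named 1 of these genes on either side of it at a distance of 0 to 50 Kb. Of the 67468 peaks in the lists of the 3 tissues, 182 met this rule: 31 in the ECC list, 136 in the limb bud list and 15 in the PNST list. Of the 50 guidance genes, 34 had such a peak in at least 1 tissue and 16 had none. The share of all genes with a peak in any tissue was not computed, and shares for each tissue are given below. Wherever a gene is said to have or lack a peak, this rule is meant: it leaves out 10 ECC, 36 limb bud and 2 PNST summits that lie inside the bodies of these genes, since the lists named other genes or larger distances there.

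The study asked whether Twist1, a basic helix-loop-helix transcription factor, occupies the same genomic regions in different tissues. Chromatin bound by an anti-Twist1 antibody was sequenced from atrioventricular canal endocardial cushions (ECCs, the precursors of the heart valves) at E12.5, from forelimb buds at E10.5, and from a cultured peripheral nerve sheath tumor (PNST) cell line, all labelled FVB/N. The embryos were wild type and tissue of several litters was pooled, and the tumor cells were 1 line pooled from several plates. Each tissue gave 1 pooled sample, so differences between tissues could not be set against variation between samples and were not tested. ECC and limb bud samples hold mixed cell types and differ in stage, and peak lists carry no expression with which to check the labelled cells.

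Guidance proteins tell migrating cells and growing axons where to go. Ephrins stay on the cell surface and bind Eph receptor tyrosine kinases on neighboring cells, with signals passing in both directions. Semaphorins signal through plexins, often with neuropilins as coreceptors, while netrins act through Dcc and the Unc5 receptors, and Slits repel cells through Robo receptors. The same families act outside the nervous system, where they shape blood vessels, endocardial cushions and the muscles and nerves of the limb.

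An intron of Plxnc1, which encodes a plexin that binds Sema7a, held, of the peaks near guidance genes, the one with the most tags and the highest fold enrichment in each of the 3 tissues, and the peaks of the 3 tissues overlapped.

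The sequences below are shown because they are among the peaks with the highest fold enrichment that hold an E-box, the site 5′-CANNTG-3′ that basic helix-loop-helix factors bind. Plxnc1 and the 2 limb bud peaks of Dcc with E-boxes (fold enrichments of 31.31 and 26.1) rank above them and are not printed. The Epha6 sequence in ECCs ties with an Epha7 peak at 37.6, and both limb bud sequences tie with other peaks of Nrp1, Sema3a and Epha6 at 20.88. Of tied peaks those with more tags are shown, with 1 exception. The Nrp1 peak and the Epha6 limb bud peak shown both have 10 tags, so tags did not decide between them. All are the plus strand of mm9, and capitals mark the E-boxes.
Epha6 in ECCs, chr16:60457351-60457522: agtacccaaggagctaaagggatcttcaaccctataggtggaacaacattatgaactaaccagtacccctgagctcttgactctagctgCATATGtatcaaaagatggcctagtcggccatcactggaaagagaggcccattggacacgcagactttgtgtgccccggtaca
Robo2 in limb buds, chr16:74041283-74041403: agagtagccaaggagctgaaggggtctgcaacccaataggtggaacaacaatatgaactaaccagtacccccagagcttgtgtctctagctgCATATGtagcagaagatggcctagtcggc
Epha6 in limb buds, chr16:60470385-60470535: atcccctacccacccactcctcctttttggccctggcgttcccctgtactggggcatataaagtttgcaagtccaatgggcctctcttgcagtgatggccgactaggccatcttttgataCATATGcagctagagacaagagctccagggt
Epha3 in PNST cells, chr16:63755063-63755226: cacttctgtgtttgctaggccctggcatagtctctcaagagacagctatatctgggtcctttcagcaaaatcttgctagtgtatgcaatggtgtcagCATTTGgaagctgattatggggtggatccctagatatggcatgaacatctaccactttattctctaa

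The ECC sequence of Epha6 and both limb bud sequences share 1 run of 17 bases around the E-box, on either strand, although they lie at 3 places. This 17-base word, looked for after these sequences had been seen, was present in 13 of the 182 peaks, at 8 of the guidance genes. The 3 peaks it was taken from are counted among them, so these shares are no test of the word. The Nrp1 limb bud peak that ties with the Epha6 sequence does not hold it. The word was held by 12 of the 136 limb bud peaks (8.82%) and 5.09% of all placed limb bud peaks. In ECCs 1 of 31 peaks held it (3.23%; 2.29% of all placed), and in PNST cells 0 of 15 (2.09% of all placed).

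Peaks near guidance genes were weak in every tissue, and most lay in sequence that recurs elsewhere in mm9. In ECCs they held 5 to 48 tags (mapped reads kept at no more than 1 per position) with a median of 6.0. The range was 8 to 51 with a median of 9.0 for limb buds, and 7 to 38 with a median of 8.0 for the tumor cells. The lowest of these values is also the lowest in each whole list, and all peaks within 50 Kb of a gene had the same medians. In ECCs 20 of the 31 peaks had the minimum number of tags or 1 more, against 69 of 136 in limb buds and 10 of 15 in PNST cells. The share was 64.5%, 50.7% and 66.7%, beside 61.4%, 49.5% and 59.0% of all peaks.

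The samples differed in depth. The limb bud list is described as deposited, and it holds more peaks from more reads than the study's text gives for limb buds, so that every limb bud count rests on this longer list. The duplicate filter left 3149934 tags in the ECC sample, 14893391 in the limb bud sample and 11823220 in the PNST sample. Tags per 1000000 of these filtered tags are written RPM, and the weakest listed peak stood at 1.59, 0.537 and 0.592 RPM. A limb bud peak at the usual strength therefore lay below the weakest peak that the ECC list holds: only 4 of the 136 limb bud peaks and 1 of the 15 PNST peaks reached 1.59 RPM. A region with the same RPM in ECCs as in limb buds would in most cases fall below the ECC list. RPM was not equal at shared regions, such as that of Plxna4, with 0.537 RPM in limb buds and 2.22 in ECCs. Why most limb bud regions have no ECC peak was not tested.

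**Figure D1:**
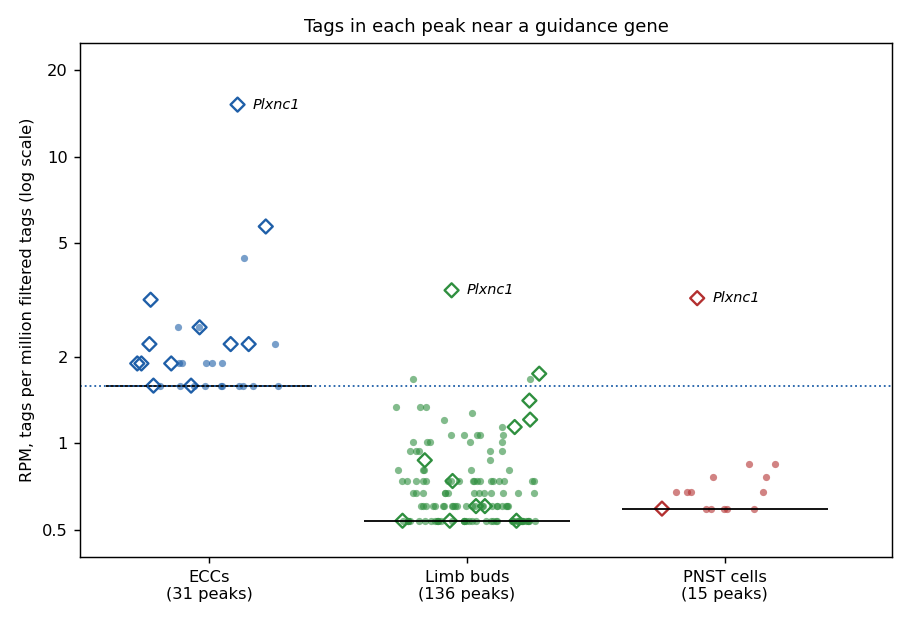
Each point is 1 peak near a guidance gene, by tissue, with its RPM on a log scale. Diamonds overlap a peak of another tissue, black lines mark the weakest peak of each list, and the dotted line carries the ECC level of 1.59 across, with 4 limb bud peaks and 1 PNST peak above it.

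Of the 50 guidance genes 19 had an ECC peak (38%), 31 had a limb bud peak (62%) and 11 had a PNST peak (22%). Among 22238 protein-coding gene symbols of the mouse annotation, the same rule gave an ECC peak for 22.5%, a limb bud peak for 53.9% and a PNST peak for 14.6%. The guidance genes are long: their median span was 144 Kb, against 15.5 Kb for all protein-coding genes. Among genes that span at least 100 Kb the background was 50.8%, 90.1% and 38.2% in the same order, beside 18 (60.0%), 26 (86.7%) and 11 (36.7%) of the 30 guidance genes of that span.

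Longer genes had more peaks. Spearman's rho across the 50 genes, which share the same libraries and are not independent replicates, was 0.57 for ECC peaks, 0.68 for limb bud peaks and 0.44 for PNST peaks. Of the 30 genes spanning at least 100 Kb 28 had a peak in some tissue, and of the 20 shorter genes 6 had one. Counted over gene bodies, the guidance genes held 0.311 ECC summits per 100 Kb, 1.14 limb bud summits and 0.137 PNST summits. All protein-coding gene bodies together held 0.326, 1.4 and 0.208.

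**Figure D2:**
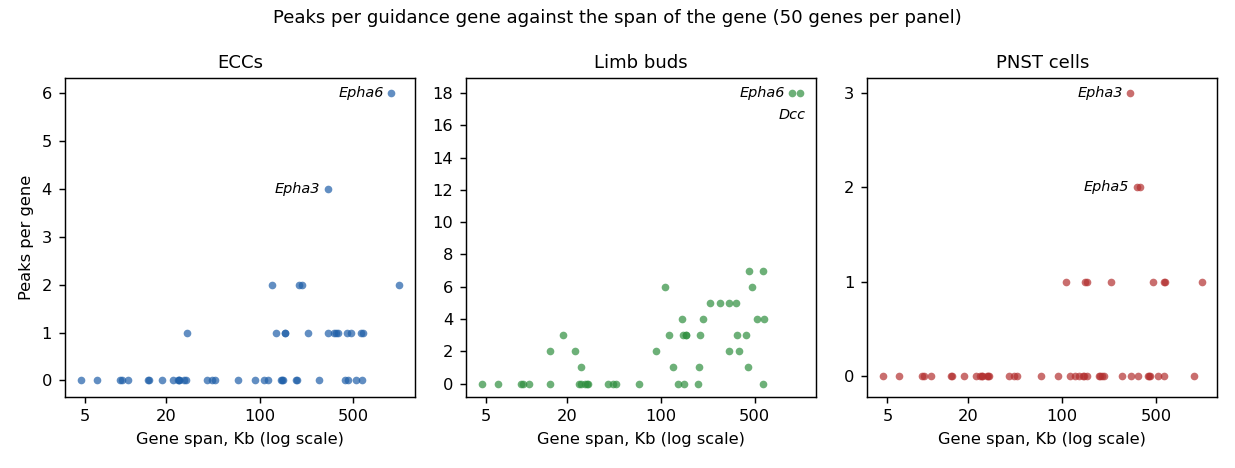
Peaks per guidance gene (linear axis, scaled for each tissue) are plotted against the span of the gene in Kb (log axis), with 1 point for each of the 50 genes. Dcc and Epha6, the longest genes, had 18 limb bud peaks each, and genes below 100 Kb were mostly at 0.

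Among the Eph receptors, the A class held most peaks. Epha3, a receptor known for its part in endocardial cushion formation, had 4 ECC, 5 limb bud and 3 PNST peaks, and was the gene with the most peaks in the tumor cells. Epha6 had 6 peaks in ECCs and 18 in limb buds, and its gene body of 952 Kb held no PNST summit. Epha5 had 1, 5 and 2 peaks, and Epha7 had 1, 3 and 0. Epha4, which steers motor axons in the limb, had a peak only in the PNST list, with 10 tags and a fold enrichment of 11.51 in intron 3. No peak was listed within 50 Kb for Epha1, Epha2 or Epha8.

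The 4 ECC peaks of Epha3 lay in introns as 2 close pairs. The pair in intron 2 had 10 and 8 tags (3.17 and 2.54 RPM), and both regions were also peaks in limb buds with 9 and 11 tags (0.604 and 0.739 RPM). The pair in intron 3 had 5 tags in each peak and was not overlapped in another tissue. The PNST peaks of Epha3 had 9, 10 and 8 tags at 3 other places, so that of the 12 Epha3 peaks 4 were shared, all between ECCs and limb buds.

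Epha6 peaks were spread along the gene. Its 6 ECC peaks had 5 to 8 tags and its 18 limb bud peaks 8 to 25 tags, and 1 region in intron 13 was a peak in both, with 5 tags in ECCs and 9 in limb buds. The limb bud peak of 25 tags (1.68 RPM, 95% interval 1.09 to 2.48) in intron 1 had no overlapping ECC peak. It was above the weakest listed ECC peak (1.59 RPM), but its interval spans that value, so an absence in ECCs is not shown. Exact Poisson intervals on tags and Wilson intervals on shares cover counting error only.

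The B class had fewer peaks. Ephb4, a receptor of the venous endothelium, had 1 ECC peak 14.2 Kb before its start site, and none elsewhere. With 14 tags (4.44 RPM, interval 2.43 to 7.46) this was the third strongest ECC peak by tags and the strongest of those not overlapped in another tissue. Ephb1 and Ephb3 each had 3 peaks, and Ephb6 had 2, in limb buds alone; the strongest held 20 tags at Ephb1 and 16 at Ephb6. Ephb2 had none.

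The ephrin ligands were nearly without peaks. Of the 7 ephrin genes, 1 had a peak: Efna5, which encodes a ligand held on the membrane by a lipid anchor, had 5 limb bud peaks of 8 to 16 tags. Efna5 spans 277 Kb and also held 1 ECC summit inside its body that the rule did not count. The 4 other A ligand genes, Efna1, Efna2, Efna3 and Efna4, were named in no row and are short, with Efna4 the shortest of the 50 at 4.64 Kb. Efnb2 was named in the lists only beyond 50 Kb, and Efnb3 in no row. By comparison 9 of the 13 Eph receptors had a peak in some tissue. The ephrin genes except Efna5 span 4.64 to 43.8 Kb, and the Eph receptor genes 14.8 to 952 Kb. Neither ligands and receptors nor the A and B classes were compared at like span.

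**Figure D3:**
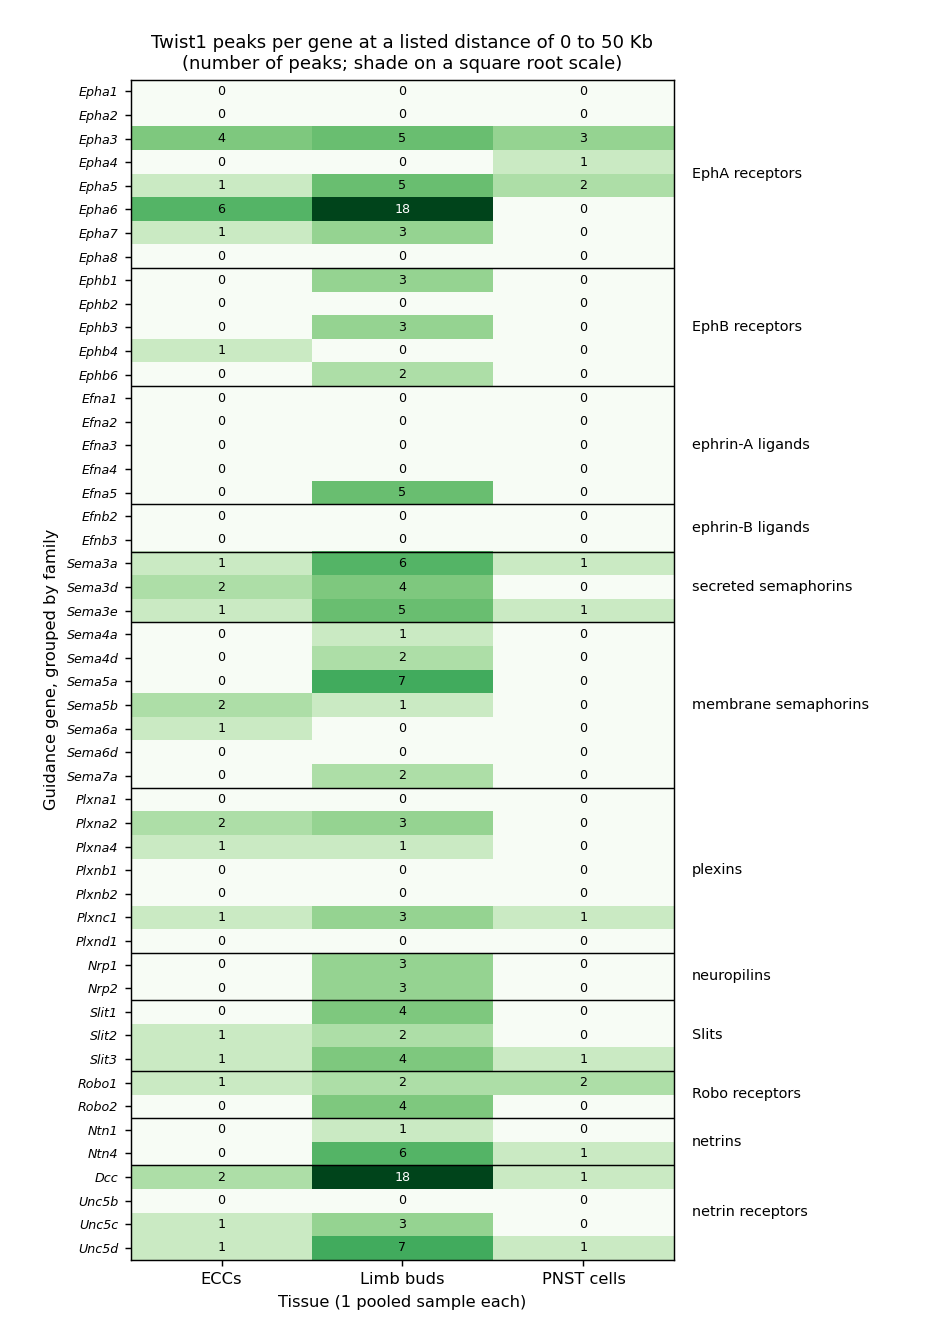
Rows are the 50 guidance genes grouped by family, columns are the 3 tissues, and each cell gives the number of peaks, with darker green for more. Most cells of the ephrin and short plexin genes read 0, and Epha6 and Dcc read 18 in limb buds.

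Each of the 3 secreted semaphorin genes had peaks in ECCs and limb buds. Sema3a, a repellent of axons and vessels, had 1 ECC, 6 limb bud and 1 PNST peak. The ECC peak (6 tags) lay in intron 6 and overlapped a limb bud peak of 8 tags, and both held an E-box, CACCTG in the ECC sequence. Sema3d had 2 ECC peaks of 5 tags and 4 limb bud peaks of 8 to 18 tags with no overlap, and Sema3e had 1, 5 and 1 peaks, also with no overlap. The PNST peak of Sema3e had 9 tags and a fold enrichment of 18.44.

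Of the 7 membrane semaphorin genes 2 had an ECC peak, 5 a limb bud peak and none a PNST peak. Sema5b, which encodes a transmembrane protein with thrombospondin repeats, had the ECC peak with the most tags after Plxnc1. In its intron 4, 18 tags in ECCs (5.71 RPM) and 21 in limb buds (1.41 RPM, interval 0.873 to 2.16) marked the same region, with fold enrichments of 25.74 and 26.1, and neither peak held an E-box. By fold enrichment the ECC peak was below the median of its whole list, 26.46. Sema5a had 7 limb bud peaks of 8 to 11 tags and Sema7a had 2, of 15 and 14 tags. Sema4a had 1 and Sema4d 2 in limb buds, Sema6a had 1 ECC peak of 5 tags, and Sema6d, at 578 Kb the longest gene without a peak by the rule, was named only beyond 50 Kb, with 1 ECC and 2 limb bud summits inside its body.

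Among the receptors of semaphorins, Plxnc1 had the peak with the most tags. This shared peak in intron 5, 72.4 Kb from the start site, had 48 ECC tags, 51 limb bud tags and 38 PNST tags. At the depth of each sample this was 15.2 RPM for ECCs (interval 11.2 to 20.2), 3.42 RPM for limb buds (2.55 to 4.50) and 3.21 RPM for the tumor cells (2.27 to 4.41). Fold enrichment was 143.76, 102.12 and 112.27, which ranked 14, 53 and 21 in the whole lists, while tags ranked 206, 580 and 252. Much of the region is repeated sequence: the 32-base words of the ECC and limb bud peaks had a median of 1299 copies in mm9, and those that occur once made up 41.2% and 42.7% of them. The PNST peak reaches further into single-copy sequence, with a median of 1 copy and 62.6% of words found once. What the repeat adds to these tags was not tested. In RPM, limb buds and PNST cells overlapped in their counting intervals and ECCs lay above both. The tags themselves (48, 51 and 38) were close, so the higher ECC value comes from the division by a smaller total. With at most 1 tag kept per position, whether tags in this short region rise with depth was not tested. The RPM values are therefore not read as a difference in occupancy.

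The other plexin genes had few peaks. Plxna2 had 2 in ECCs (7 and 8 tags, intron 3) and 3 in limb buds (12, 15 and 16 tags), at different places. Plxna4 had 1 in each, upstream of the gene and starting at the same base, with 7 tags in ECCs and 8 in limb buds. Plxna1, Plxnb1, Plxnb2 and Plxnd1, which span 24.5 to 46.3 Kb, were named in no row. Nrp1 and Nrp2, the neuropilins, each had 3 limb bud peaks of 9 to 15 tags and none in ECCs or PNST cells.

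All 3 Slit genes had limb bud peaks. Slit1 had 4, of 9 to 19 tags, and none elsewhere. Slit2 had 2 in limb buds and 1 in ECCs. The ECC peak (7 tags) lay within a limb bud peak of 18 tags 16.5 Kb before the start site, and a second limb bud peak at 2.00 Kb was the closest of all 182 to a start site. Slit3 had 1 ECC, 4 limb bud and 1 PNST peak, and the ECC peak (6 tags) overlapped the limb bud peak with the most tags after Plxnc1, 26 tags or 1.75 RPM (interval 1.14 to 2.56). That region lies beyond the end of Slit3, 611 Kb from its start.

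The Robo receptors carried small peaks. Robo1 had 1 ECC, 2 limb bud and 2 PNST peaks with 6 to 10 tags and no overlap between tissues. Robo2 had 4 limb bud peaks of 8 to 11 tags, and the sequence shown above is the one with the most tags. Its body also held 2 ECC summits that the rule did not count.

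Netrin genes had no ECC peak by the rule, although 1 ECC summit lay inside the body of Ntn4. Ntn4, a netrin of basement membranes, had 6 limb bud peaks of 8 to 12 tags and 1 PNST peak of 7 tags, and Ntn1 had 1 limb bud peak of 15 tags beyond its end, with the summit in an exon of the neighboring gene Stx8.

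Of the 4 netrin receptor genes 3 had peaks. Dcc, the attractive receptor, spans 1092 Kb and had 2 ECC, 18 limb bud and 1 PNST peak. A region in its intron 14 was a peak in all 3 tissues, with 7 ECC tags (2.22 RPM), 13 limb bud tags (0.873 RPM) and 7 PNST tags (0.592 RPM), and fold enrichments of 58.48, 31.31 and 21.24. These intervals are wide, 0.893 to 4.58, 0.465 to 1.49 and 0.238 to 1.22 RPM, and overlap one another. A second Dcc region, in intron 7, was shared by ECCs (6 tags) and limb buds (17 tags). Dcc held 2.20 limb bud summits per 100 Kb, the highest of the guidance genes that span at least 100 Kb, whose median was 1.06.

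Unc5d had 1 ECC, 7 limb bud and 1 PNST peak, of which the ECC peak (5 tags) overlapped a limb bud peak of 8 tags outside the gene body. Its limb bud peak of 25 tags, 24.6 Kb from a start site, was the other limb bud peak above the weakest listed ECC peak with no ECC peak over it. The interval of this limb bud peak (1.09 to 2.48 RPM) also spans the 1.59 RPM of that ECC peak. Unc5c had 1 ECC peak, with 5 tags and a fold enrichment of 47.0, and 3 limb bud peaks. Unc5b had none.

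Genes with peaks in several tissues had a common region in some cases only. Peaks of all tissues were listed for 9 genes (Epha3, Epha5, Sema3a, Sema3e, Plxnc1, Slit3, Robo1, Dcc and Unc5d), and 2 of them, Plxnc1 and Dcc, had a region common to all 3. Neither share was computed over all protein-coding genes, so these counts are not read as a trait of guidance genes. Overlap between ECCs and limb buds, by at least 5% of the length of either peak, was found at 10 of the 50 genes (8.73% of all protein-coding symbols): Dcc, Epha3, Epha6, Plxna4, Plxnc1, Sema3a, Sema5b, Slit2, Slit3 and Unc5d. These 10 are among the 9 genes with peaks in every tissue and the 8 with peaks in ECCs and limb buds alone. ECC and PNST peaks overlapped at 2 genes (1.81% of all symbols) and limb bud and PNST peaks at 2 (3.03% of all symbols). These shares are over genes of all spans, while the guidance genes are long. No share of overlaps was computed for long genes alone, so no excess is read from them.

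Seen by peaks, 12 of the 31 ECC peaks (38.7%, 23.7 to 56.2%) were overlapped in limb buds, beside 33% of all ECC peaks within 50 Kb of a gene. Of the limb bud peaks 12 of 136 (8.82%, 5.12 to 14.8%) were overlapped in ECCs, beside 7.84%. Of the PNST peaks 2 of 15 (13.3%) were overlapped in limb buds, beside 19.0%. The 19 ECC peaks without a limb bud overlap all lay above the weakest limb bud peak in RPM. This was fixed in advance, since the weakest ECC peak stood at 1.59 RPM and the weakest limb bud peak at 0.537. Counting intervals of ECC peaks with 5 tags began at 0.515 RPM, below that limb bud level. Of the 19, 5 had a limb bud peak within 1 Kb. Of the 124 limb bud peaks without an ECC overlap, 122 lay below the weakest ECC peak.

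The peaks lay far from start sites. The distances printed in the lists run from the start of the peak to boundaries of exons or codons and not only to start sites: 250 of 258 distances to guidance genes ended within 3 bp of such a boundary in the annotation. Measured from the summit to the nearest start of a coding transcript of the gene, the median distance was 72.4 Kb in ECCs, 130 Kb for the limb bud peaks and 177 Kb in the tumor cells. No peak lay within 1 Kb of a start site, and 14 of 31, 51 of 136 and 1 of 15 lay within 50 Kb. Summits were in introns of coding genes in 24 ECC (77.4%), 90 limb bud (66.2%) and 13 PNST peaks (86.7%), beside 43.0%, 45.6% and 47.4% of all peaks within 50 Kb. Neither the intron shares nor the distances were set against genes of like span. As the guidance genes are long, these values are not read as a trait of their peaks.

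**Figure D4:**
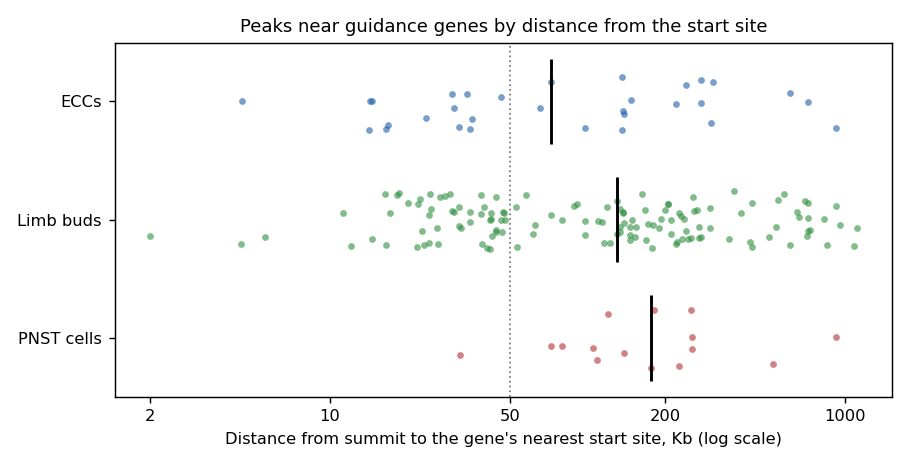
Each point is 1 peak near a guidance gene, by tissue, at its distance in Kb (log axis) from the nearest start site of that gene, black lines are medians and the dotted line is 50 Kb. The medians of 72.4, 130 and 177 Kb all lie beyond 50 Kb.

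E-boxes were present in 15 of 31 ECC peaks (48.4%, interval 32 to 65.2%), 80 of 136 from limb buds (58.8%, 50.4 to 66.7%) and 10 of 15 from PNST cells (66.7%, 41.7 to 84.8%). All placed peaks within 50 Kb of a gene held 1 in 53%, 55.6% and 51.8%, with similar median lengths, and each of these lies inside the interval of the guidance gene peaks. Within 50 bp of the summit the shares were 45.2%, 39.7% and 73.3% (11 of 15 PNST peaks), beside 37.3%, 40% and 39.5% of all such peaks. No intervals were computed for this window, and the PNST share rests on 15 peaks, so no excess is read from it. Of the 12 ECC peaks overlapped in limb buds 4 held an E-box, and of the other 19, 11 did. CATATG, a palindrome and so the same on both strands, was found in 20 of the 136 limb bud peaks (14.7%). Its share of all placed limb bud peaks within 50 Kb was 8.55%, and "of all" below means such peaks of the tissue named. Of the 20 peaks, 12 hold the 17-base word described above, whose 5.09% was over placed peaks at any distance. CATATG was found in 1 of 31 ECC peaks (3.23%, beside 5.39% of all) and 0 of 15 PNST peaks (4.77% of all). CAGATG or its complement CATCTG was found in 14 limb bud peaks (10.3%; 12.1% of all), and CAGCTG in 7 (5.15%; 8.01%).

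Most of these peaks lie in repeated sequence. The median number of copies of their 32-base words was at least 10 for 30 of the 31 peaks in ECCs, 132 of the 136 in limb buds and 13 of the 15 in the tumor cells. This count was not made over the peaks of other genes. Over peaks, the median of these values was 500 copies in mm9 (ECCs), 558 (limb buds) and 308 (PNST), beside 140, 372 and 148 for all peaks within 50 Kb. Words that occur once made up over 50% of the peak in 1 ECC (3.23%), 1 limb bud (0.735%) and 2 PNST peaks (13.3%). Among all placed peaks within 50 Kb the shares were 6.36%, 1.81% and 4.63%, and the counts are too small to read a difference. The peaks were the Dcc region shared by all 3 tissues in ECCs and PNST cells, the Plxnc1 region in PNST cells, and a limb bud peak of 9 tags 29.2 Kb before Ephb3. Of the 182 peaks 122 (67.0%) shared at least 1 identical 32-base word with a peak of another guidance gene: 21 from ECCs (67.7%), 96 from limb buds (70.6%) and 5 from PNST cells (33.3%). No such share was computed for peaks of other genes, so these values are not read as a trait of guidance gene peaks. The part that repeated sequence has in the peaks was not tested.

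**Figure D5:**
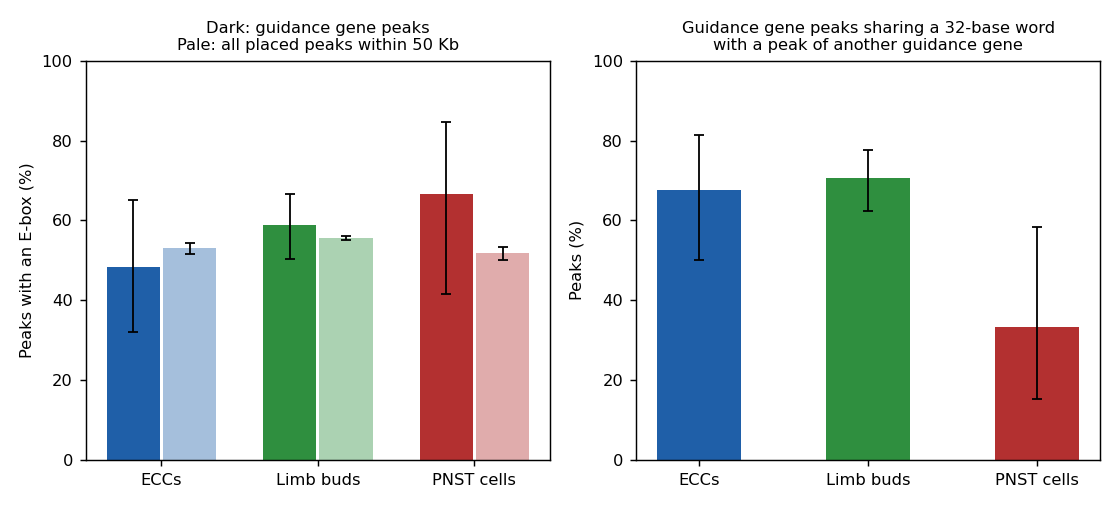
Left, the percent of peaks with an E-box near guidance genes (dark) and among all placed peaks within 50 Kb of a gene (pale); right, the percent of guidance gene peaks that share a 32-base word with a peak of another guidance gene; bars are Wilson 95% intervals. The dark bars of 48.4, 58.8 and 66.7% span the pale ones, and the word shares are 67.7, 70.6 and 33.3%. No word share was computed for peaks of other genes.

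Other genes of the same pathways were counted by the same rule. Of 26 further ligands, receptors and related genes (25 in the annotation), 7 had an ECC peak, 11 a limb bud peak and 1 a PNST peak, and 12 had none. They include Sema3c, a ligand that guides neural crest cells to the outflow tract, with 2 ECC peaks and 4 limb bud peaks of at most 17 tags, and Rgmb, the gene with a PNST peak. The background for all protein-coding genes is the 22.5%, 53.9% and 14.6% given above, and 4 of these genes span at least 100 Kb. No region of these 26 was shared between tissues. Overlaps were found at 8.73% (ECC and limb bud), 1.81% (ECC and PNST) and 3.03% (limb bud and PNST) of all protein-coding symbols. The set is too small to read the lack of overlap as a trait of these genes. Of 34 genes for intracellular effectors, 7, 26 and 13 had a peak, and 8 had none. Of the 22 that span at least 100 Kb, 7 (31.8%), 19 (86.4%) and 11 (50%) had one, beside the background of 50.8%, 90.1% and 38.2% for genes of that span. Among these 34, ECC and limb bud peaks overlapped at Vav3 and Tiam1, both activators of Rac, beside 8.73% of all protein-coding symbols. Limb bud and PNST peaks overlapped at 6 genes, Srgap1, Enah, Trio, Dock1, Arhgef12 and Limk1, beside 3.03% of all protein-coding symbols. These shares are over genes of all spans, and none was computed for long genes alone.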

How the data were processed

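ChIP-seq with anti-Twist1 was analysed in 3 samples, 1 for each tissue. The authors mapped single reads to mm9 (Bowtie in the submitters' processing notes) and found peaks, sample by sample, using MACS 1.4.2 and p-values up to 1e-05. Genomic DNA of FVB/N mice served as control by the methods, while the file headers list none. The authors deposited for each peak a count of tags, a fold enrichment (the ratio of tags to the local background) and a score, 10 times the −log10 of the p-value. Tags per 1000000 filtered tags (RPM) were computed from the header totals. The deposited lists also name the gene on each side, with its distance.

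Guidance genes and the other lists were chosen with earlier results of these data known. Genes named in the text are those with a peak shared between tissues, the 5 peaks with the highest fold enrichment and with the most tags in each tissue, the 5 genes with the most peaks, and genes with peaks in every tissue or none; other members, named to account for each, were described with their values already seen. Peaks were shared when at least 5% of the length of either was overlapped. Genes, start sites and introns are those of GENCODE vM1 protein-coding entries, and 13053 of the 13929 symbols named within 50 Kb were found there. Intron numbers follow the coding transcript with the longest exons in sum. Sequences came from mm9, and peaks on unplaced sequence were left out of sequence counts. The sequence of the Plxnc1 peaks is not reported here. Intervals are exact Poisson (tags) or Wilson (shares), at 95%. With 1 sample a tissue no difference was tested. The code was checked on simulated peaks. Python 3.11.15, pandas 2.3.3, SciPy 1.17.1 and pysam 0.24.0 were used.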

Additional observations from a re-analysis of the deposited data

How the results depend on the processing

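Of 102 recomputed values 52 stayed within 1.5 times the reported count or inside its interval, and 50 did not; all values keep to 1 sample a tissue. No paired analysis was possible because each tissue has 1 sample.

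A p-value of 1e-10 or smaller left 4 genes with 4 peaks for ECCs, 11 with 14 for limb buds, and 1 with 1 for PNST cells, with overlaps at 3 (ECC-Limb), 1 (ECC-PNST) and 1 gene (Limb-PNST), and E-boxes in 25%, 42.9% and 100% of peaks. A fold enrichment of at least 20 left limb buds 11 genes with 14 peaks and PNST cells 3 with 3, with ECC-Limb overlaps at 3. A distance of at most 10 Kb left 9 genes and 12 peaks in ECCs, 48 peaks in limb buds, 5 genes and 5 peaks in PNST cells and ECC-Limb overlaps at 5. At the RPM of the weakest ECC peak, limb buds kept 4 genes with 4 peaks and PNST cells 1 with 1, with overlaps at 2, 1 and 1. Within 50 bp of the summit 39.7% of limb bud peaks held an E-box, in place of 58.8% over the whole peak. Scaled to all mapped tags the median RPM was 1.05, 0.390 and 0.477 in place of 1.90, 0.604 and 0.677, by the larger total.

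The next settings were chosen after seeing the data. With a start site within 50 Kb there were 19 ECC and 65 limb bud peaks, 3 genes and 3 peaks in PNST cells, and overlaps at 4, 0 and 0 genes. Only peaks with over 50% of 32-base words in a single copy left 1 gene with 1 peak for ECCs, 1 with 1 for limb buds and 2 with 2 for PNST cells, with overlaps at 0, 1 and 0. Beyond these constructions the cause was not tested. With 5 tags in its weakest peak, the ECC list cannot show regions that are under 1.59 RPM in ECCs.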
